A study of Mus musculus with 2 samples.

Results

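The genes described here encode the nuclear subunits of the respiratory chain, as read in iPSCs of the mouse, which are body cells reprogrammed to pluripotency (induced pluripotent stem cells). They were chosen by name: a probe set entered if its only gene symbol in the platform table starts with Nduf, Uqcr, Cox4 to Cox8 or Atp5, or is Sdha, Sdhb, Sdhc or Sdhd. Of 12393 genes that have their own probe set, 84 matched, on 156 of 22690 probe sets. Their symbols all had an entry in the RefSeq gene table. By function 78 of the 84 are subunits, 5 are assembly factors of complex I (the Ndufaf genes) and 1, Cox7a2l, joins complexes III and IV into supercomplexes. These last 6 share a prefix without being subunits and are described apart. The study holds 1 hybridized and 1 live iPSC sample, both grown in serum medium for mouse embryonic stem cells with 2i, inhibitors of MEK and GSK3 that keep mouse cells naive. The labels do not give the cell line, strain, sex, number of clones or age of the cells, nor what the hybridized cells were hybridized with. RNA of each sample was amplified, labelled with biotin as cDNA and read on 1 Affymetrix array.

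The respiratory chain sits in the inner mitochondrial membrane. Complex I takes electrons from NADH and complex II from succinate, both hand them to ubiquinone, complex III passes them to cytochrome c, and complex IV gives them to oxygen. Complexes I, III and IV pump protons as they do so, and complex V, the ATP synthase, uses the returning protons to turn its membrane ring and make ATP. Most subunits are encoded in the nucleus and imported, while a few hydrophobic core subunits are encoded by mitochondrial DNA. Naive mouse pluripotent cells are known to respire as well as to use glycolysis.

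Values are log2 GCRMA values as deposited, and every difference is the hybridized sample minus the live sample on that scale. A gene is represented by its brightest probe set (by the mean of both arrays), and was compared if that mean was 5 or more. This limit does not test presence. With 1 array per group there is no replicate error, no test and no p-value, and precision is limited by there being so few arrays. The counts and medians describe these 2 arrays. At least 2-fold apart means a difference of at least 1 in size. The labelled cell type was checked with 9 pluripotency markers. All 9 were at the level, and their differences ran from -0.70 (Pou5f1) to 0.14 (Nanog and Zfp42). Of 9 fibroblast markers only Col1a1 was at the level, at 4.46 in hybridized cells and 6.17 in live cells. Pdgfrb, under the level by its mean, read 3.62 in hybridized cells and 5.22 in live cells. Col1a2, Dcn and Col3a1, all under the level, differed by 0.04 to 0.19. The 9 values summed to 24.99 in hybridized cells and 29.84 in live cells. The part of fibroblasts in the results was not tested. The 5' control probe set gained on the 3' one in hybridized cells, by 2.52 for Actb, 1.81 for Gapdh and 0.50 for Tfrc. The part of this shift in the results below was not tested either. The 9 hybridization control probe sets, which read transcripts added at a fixed amount, differed by -0.98 to -0.15 with a median of -0.75.

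Promoters of the subunit genes were searched for 3 motifs long known from genes of respiration, and 4 windows are printed as examples. The windows come from RefSeq (GRCm38.p6), run from 250 bases before to 50 bases after a transcript start, and exist in the table used for 64 of the 78 subunit genes. The letters searched on both strands were GCATGCGC for NRF1, CCGGAAG for GABPA and AAGATGGCG for YY1. A window counts once however many matches it holds, and the NRF1 letters overlap their own reverse match in Uqcrc1. GCATGCGC was in 9 of 69 subunit windows (13.04%), against 891 of all 32851 windows in the table (2.71%). CCGGAAG was in 17 subunit windows (24.6%) against 8.86% of all windows, and AAGATGGCG in 6 (8.70%) against 1.40%. A match is a run of letters and not a site shown to be bound. Shown are the lowest subunit with a match in complexes I, III and IV, and Ndufs4, which shares the YY1 letters with Ndufs7. Capitals mark the matches, and each window is written 5' to 3' on the gene's strand.
Ndufs7, chr10:80249199-80249498, plus strand: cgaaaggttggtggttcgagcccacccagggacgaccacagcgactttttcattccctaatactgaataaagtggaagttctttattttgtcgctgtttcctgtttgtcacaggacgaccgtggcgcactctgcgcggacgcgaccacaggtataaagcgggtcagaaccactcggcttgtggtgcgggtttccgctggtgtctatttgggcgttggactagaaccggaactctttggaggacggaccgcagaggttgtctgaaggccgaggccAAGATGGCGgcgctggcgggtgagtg
Ndufs4, chr13:114388045-114388344, minus strand: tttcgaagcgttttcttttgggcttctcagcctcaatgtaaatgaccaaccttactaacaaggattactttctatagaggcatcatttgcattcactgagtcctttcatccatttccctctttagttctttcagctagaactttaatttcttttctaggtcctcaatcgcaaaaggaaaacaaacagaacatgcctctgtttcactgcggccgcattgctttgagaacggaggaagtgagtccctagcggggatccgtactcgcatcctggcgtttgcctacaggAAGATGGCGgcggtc
Uqcrc1, chr9:108936398-108936697, plus strand: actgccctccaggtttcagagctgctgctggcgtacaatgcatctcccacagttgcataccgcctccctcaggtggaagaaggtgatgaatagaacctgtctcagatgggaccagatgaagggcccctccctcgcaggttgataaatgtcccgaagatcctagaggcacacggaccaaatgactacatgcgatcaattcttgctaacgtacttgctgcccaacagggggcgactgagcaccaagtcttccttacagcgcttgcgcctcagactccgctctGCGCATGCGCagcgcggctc
Cox8a, chr19:7217567-7217866, minus strand: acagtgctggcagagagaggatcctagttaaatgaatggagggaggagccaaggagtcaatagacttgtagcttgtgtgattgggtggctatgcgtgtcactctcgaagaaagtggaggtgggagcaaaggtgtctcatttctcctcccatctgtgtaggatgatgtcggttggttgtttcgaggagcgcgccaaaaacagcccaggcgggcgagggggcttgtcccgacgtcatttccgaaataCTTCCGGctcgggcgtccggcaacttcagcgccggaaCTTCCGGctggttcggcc
The 9 genes with the NRF1 letters all lay below 0 as deposited and on brightest probe sets, from -0.76 to -0.09 with a median of -0.38. Over all genes compared 58.5% lay below 0, and genes other than subunits with these letters were not counted. With control centring only Uqcrc1 of the 9 stayed below 0, at -0.01. Centring on the median gene, whose difference was -0.17, turned Sdhb to 0.08. It also turned Atp5k (-0.15 as deposited) and Atp5l (-0.16 as deposited) just above 0. Atp5g2 differed by 0.03 on its second probe set. Of the 53 subunits at the level without these letters, 38 lay below 0, with a median of -0.30. For the other motifs the genes with the letters had the higher median. The 17 genes with the GABPA letters ran from -0.95 to 0.16 with a median of -0.18, against -0.38 for the 45 without them. The 6 with the YY1 letters ran from -1.15 to 0.17 with a median of -0.125, against -0.35 for the 56 without. Ndufs7 was the lowest of these 6 and Ndufs4, at -0.14 on its brightest probe set, was near their median. On their second brightest probe sets Ndufs7 differed by -0.04 and Ndufs4 by 1.70. Each of these medians turns positive when differences are centred on the hybridization controls, which adds 0.75 to all.

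As deposited and on brightest probe sets, but not when centred on the hybridization controls, most subunits in each of the 5 complexes read slightly lower in hybridized cells. Of 78 subunits 73 were at the level, and 55 of them (75.3%) lay below 0, against 58.5% of all 7262 genes compared and 54.0% of 3846 bright genes, those whose mean reached 9. The subunits' median was -0.30, against -0.17 for all genes and -0.07 for the bright ones. The shift was small: 5 subunits (6.85%) were at least 2-fold lower, against 15.4% of all genes and 7.77% of the bright ones. This share is under that of all genes and near that of the bright ones. In all, 23.8% of the genes compared and 14.4% of the bright ones were at least 2-fold apart. No subunit was at least 2-fold higher, against 8.43% of all genes and 6.63% of the bright ones. In bulk RNA, fewer cells that express a gene and less of its RNA per cell cannot be told apart. The direction depends on the centring and on the choice of probe set. Of 73 subunits, 44 lay below 0 after centring on the median gene, and 12 after centring on the hybridization controls, where the median was 0.45 against 0.58 for all genes. Without suffixed probe sets, described further on, 26 of 53 lay below 0 with a median of 0, and on second brightest probe sets 21 of 42 did with a median of 0.005. Over all genes the medians under these 2 choices were -0.08 and 0.08.

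The medians of the complexes lay close together on brightest probe sets. They were -0.28 for complex I (33 subunits at the level), -0.21 for complex II (4), -0.355 for complex III (8), -0.30 for complex IV (11) and -0.35 for complex V (17), and all turned positive, at 0.395 to 0.54, with control centring. The spread within a complex was wider than the gaps between these medians, from -1.39 to 0.93 in complex I and from -1.11 to 0.22 in complex V. Probe sets of the same subunit differed with an SD of 0.50 (the SD of the gap between the brightest and the second brightest, divided by the square root of 2, over 42 genes). Without suffixed probe sets the medians were 0.04, 0.27, 0.07, -0.26 and -0.05 for complexes I to V, and on second brightest ones -0.065, 0.27, 0.535, -0.26 and 0.17. Complexes II and III were thus above 0 under both of these choices and complex IV below it, and no order of the complexes is read from these medians.

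**Figure D1:**
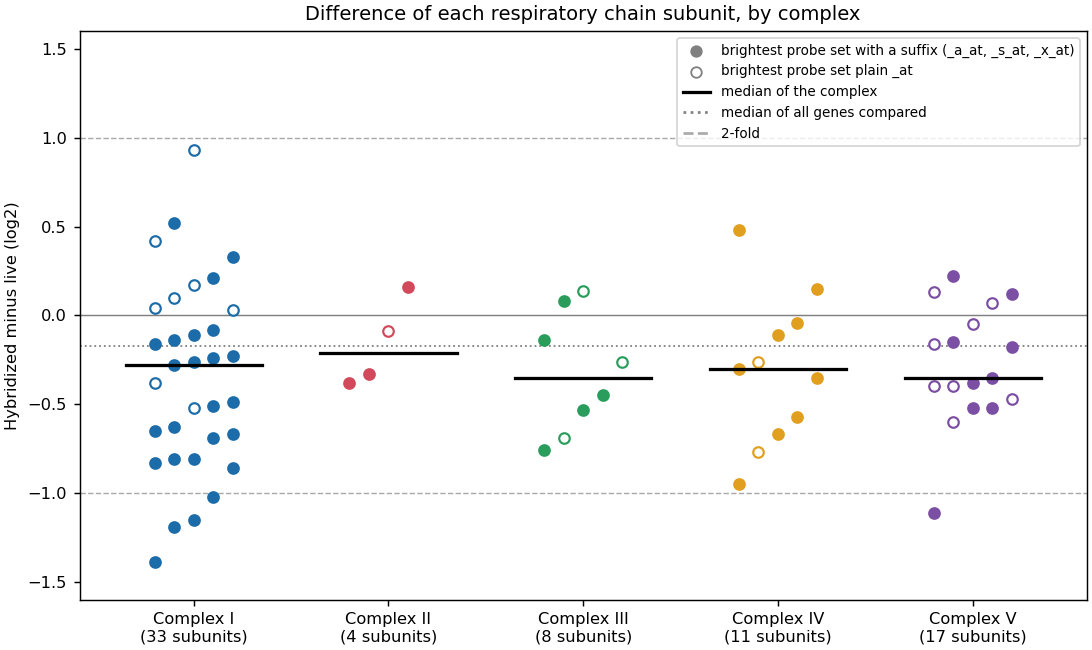
Difference of each subunit at the level (hybridized minus live, log2, y axis) in complexes I to V (x axis), 1 point per gene. Filled points have a brightest probe set with a suffix, open points a plain _at probe set, black bars are medians of a complex from -0.355 to -0.21, the dotted line is the median of all genes compared (-0.17), and dashed lines mark 2-fold. As deposited, 5 points lie at or under -1 and none at or over 1. With control centring every point is 0.75 higher and the medians are positive.

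In complex I the core subunits that carry electrons through the matrix arm held 3 of the 4 complex I subunits at least 2-fold lower. These 4 were 12.1% of the 33 complex I subunits at the level, against 15.4% of all genes compared and 7.77% of the bright ones. Ndufv1, which carries the FMN that oxidises NADH, read 10.47 in hybridized cells and 11.49 in live cells. Ndufv2, the iron-sulfur subunit beside it, read 11.45 and 12.64, and Ndufs7, which holds the last iron-sulfur cluster before ubiquinone, read 10.37 and 11.52, hybridized before live. These 3 differences were -1.02, -1.19 and -1.15. Ndufs8, another iron-sulfur subunit, was lower by less, at 10.14 in hybridized cells against 10.95 in live cells. Ndufs1, the largest iron-sulfur subunit (-0.08), and Ndufs3, a core subunit of the quinone-binding part (0.03), were nearly level. Over these 6 core subunits the median was -0.915, and it stayed below 0, at -0.165, with control centring, while 27 supernumerary subunits had a median of -0.26, positive with that centring. The core median was -0.04 on plain _at probe sets, with 3 of 5 genes below 0 and none 2-fold lower.

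The 3 core subunits that were 2-fold lower did not repeat at that size on their other probe sets. Ndufv1 differed by -0.69 and -0.13 on its other probe sets and Ndufv2 by -0.74 and -0.26, so both were below 0 on all 3 as deposited. With control centring Ndufv1 and Ndufv2 stayed below 0 only on their brightest probe sets, at -0.27 and -0.44. Ndufs7 differed by -0.04 on its other probe set, where it read 7.74 in hybridized cells and 7.78 in live cells. Ndufs8 had 6 probe sets at the level, and their differences ran from -0.81 to 0.74, with 3 below 0 and 3 above. The probe sets of Ndufs8 therefore gave no common direction.

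Supernumerary subunits, which surround the core without carrying electrons, ran in both directions. Ndufb9, a LYR-motif subunit of the distal membrane arm, was the lowest subunit of all at 10.70 in hybridized cells and 12.09 in live cells, a difference of -1.39. Its other probe set at the level read 10.89 and 10.39, hybridized before live, a difference of 0.50 in the opposite direction. Ndufb3, of the same arm, was the highest subunit, at 11.22 in hybridized cells and 10.29 in live cells, on its only probe set. The next highest subunits of complex I were Ndufb10, also of that arm, at 12.50 against 11.98, and Ndufs5, an intermembrane-side subunit, at 10.53 against 10.11. Of 9 subunits of the distal arm at the level 7 lay below 0, against 58.5% of all genes compared, with a median of -0.51 as deposited and 0.24 with control centring. Without suffixed probe sets 2 of 6 lay below 0 with a median of 0.345, and on second brightest ones 3 of 6 did with a median of 0.06. On brightest probe sets Ndufb11 (-0.86), Ndufb2 (-0.83) and Ndufb8 (-0.81) came after Ndufb9 in this arm. Ndufb2 differed by 0.14 on its other probe set. Ndufb11 differed by 0.90 on its plain probe set, where it read 9.77 in hybridized cells and 8.87 in live cells. Ndufb1, also of this arm, was under the level, at 3.67 in hybridized cells and 3.69 in live cells.

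Ndufs4, a supernumerary subunit that keeps the NADH-oxidising module stable, had the widest range of differences among the complex I genes over probe sets at the level. It read 10.38 in hybridized cells and 10.52 in live cells on its brightest probe set. On its second probe set it read 11.16 and 9.46, hybridized before live, a difference of 1.70, and on its other one it differed by -0.27. Ndufa7, by contrast, lay below 0 on all 5 of its probe sets, from -0.65 to -0.24. Ndufa3 (-0.63 and -0.50), Ndufb7 (-0.51 and -0.26) and Ndufc1 (-0.11 and -0.70) also lay below 0 on both of theirs. Over complex I as deposited, 8 of 18 genes with several probe sets at the level lay below 0 on all of them and none lay above 0 on all. The other 10 had probe sets on both sides of 0 or at it. Over 2720 genes on the array 27.1% lay below 0 on all and 27.6% above 0 on all. Ndufa4, which carries a complex I name but is now placed in complex IV, read 11.92 in hybridized cells and 11.88 in live cells.

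The 4 subunits of complex II, succinate dehydrogenase, all lay within 1.5-fold on their brightest probe sets. Sdha, the FAD-carrying subunit that oxidises succinate, read 11.60 in hybridized cells and 11.93 in live cells. Sdhb, the iron-sulfur subunit, read 10.34 and 10.43 in the same order. The membrane anchors Sdhc and Sdhd differed by -0.38 and 0.16. Thus 3 of the 4 lay below 0 as deposited, and none with control centring. Second probe sets of Sdha (0.27), Sdhc (0.24) and Sdhd (1.17) were all higher in hybridized cells. That of Sdhd read 10.24 against 9.07 in live cells, which made Sdhd at least 2-fold higher on one probe set and nearly level on the other.

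On the brightest probe sets of complex III the largest difference was at Uqcrc1, a core protein on the matrix side, which read 10.59 in hybridized cells and 11.35 in live cells on its only probe set. Its partner Uqcrc2 differed by -0.14 on its brightest probe set and by 0.82 on the other. Uqcrfs1, the Rieske iron-sulfur protein that takes electrons from ubiquinol, read 10.52 in hybridized cells and 10.78 in live cells. The small subunits Uqcr11 (-0.69) and Uqcr10 (-0.53) lay below 0 as well. Uqcrh, the hinge protein beside cytochrome c1 (0.14), and Uqcrb, near the quinone site (0.08), lay just above it. The plain probe set of Uqcrb read 12.77 in hybridized cells and 11.74 in live cells, a difference of 1.03. Cyc1, cytochrome c1 itself, is a subunit that the prefixes miss, and it read 11.45 in hybridized cells and 12.48 in live cells on its only probe set. Cycs, cytochrome c, read 12.87 and 12.40, hybridized before live. Of the 8 complex III subunits chosen by name, 6 lay below 0 as deposited and 1 with control centring.

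Complex IV, cytochrome c oxidase, has subunits encoded by several genes that tissues use differently, and the arrays separated these isoforms by whether they reached the level. The muscle isoforms Cox6a2 (3.33 in hybridized cells and 3.38 in live cells) and Cox8b (2.79 and 2.89, in the same order) were under it. So were the lung and low-oxygen isoform Cox4i2 and the testis isoform Cox8c, at 3.35 and 3.11 in hybridized cells against 3.84 and 2.93 in live cells. Values this low have no order. The muscle isoform Cox7a1 and the testis isoform Cox6b2 were at the level. Cox7a1 read 8.23 in hybridized cells and 9.0 in live cells, and Cox6b2 read 9.69 and 9.95 in the same order. On these arrays 0 of 8 markers of striated muscle and 0 of 7 of testis were at the level, the highest being Ldhc at 4.63 in hybridized cells and 4.31 in live cells.

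The 5 common isoforms of complex IV all lay below 0 as deposited, and 1 of them did with control centring. Cox8a, the smallest subunit, was the lowest at 9.45 in hybridized cells and 10.40 in live cells, and its second probe set differed by -0.72. Cox7a2 differed by -0.57 (0.06 on its other probe set), Cox6a1 by -0.35 (-0.70), Cox6b1 by -0.30 (-0.31) and Cox4i1, the ATP-binding regulatory subunit, by -0.11. Of the subunits with a single gene, Cox5b, a zinc-binding matrix-side subunit, read 11.61 in hybridized cells and 12.28 in live cells. Its 3 _x_at probe sets at the level differed by -0.86 to -0.55 and its _a_at probe set by 0.20. Cox5a, also on the matrix side, differed by -0.04 on its brightest probe set and lay below 0 on all 3 as deposited. Cox6c (0.15) and Cox7c (0.48) lay above 0. Cox7c had the largest difference of any subunit probe set at the level, 7.81 in hybridized cells against 4.56 in live cells on its plain probe set. The live value there is under 5, and the brightest probe set of Cox7c read 8.87 against 8.39.

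In complex V the catalytic head and the membrane ring lay on one side as deposited and the peripheral stalk mostly on the other. All 5 subunits of the F1 head and its central stalk and all 3 c-ring genes lay below 0, with a median of -0.40 over the 8. Of all genes compared 58.5% lay below 0, with a median of -0.17. On second brightest probe sets at the level 2 of 4 of these head and ring genes lay below 0, and without suffixed probe sets 4 of 5 did. After centring on the median gene 7 of the 8 lay below 0, and with control centring 1 did. Atp5d, the delta subunit of the central stalk, was the lowest at 11.53 in hybridized cells and 12.64 in live cells. It was also the only one of the 5 subunits 2-fold lower to repeat at that size on its second probe set, at 9.82 in hybridized cells and 10.84 in live cells. Both probe sets of Atp5d carry the suffix _s_at. Atp5a1, the alpha subunit, read 12.74 in hybridized cells and 13.34 in live cells, and its 3 probe sets differed by -0.60, -0.54 and -0.41. Atp5b, the beta subunit with the catalytic sites, differed by -0.05, Atp5e by -0.38 and Atp5c1, the gamma subunit that rotates in the head, by -0.35. The second probe set of Atp5c1 read 7.86 in hybridized cells and 6.42 in live cells, a difference of 1.44 in the opposite direction.

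The c subunit, whose copies form the ring that protons turn, is encoded by 3 genes. Atp5g1 read 11.52 in hybridized cells and 12.04 in live cells. Atp5g2 read 10.39 and 10.79, and Atp5g3 12.32 and 12.72, hybridized before live. The 3 genes thus differed by -0.52, -0.40 and -0.40, and they also lay below 0 after centring on the median gene, loess and quantile normalization, but not with control centring. The second probe set of Atp5g2 differed by 0.03.

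The peripheral stalk holds the head still while the ring turns. Atp5pb, its b subunit, read 13.24 in hybridized cells and 13.02 in live cells, and was the highest subunit of complex V. Atp5j, coupling factor 6, differed by 0.13, Atp5o, which ties the stalk to the head, by 0.12, and Atp5h, the d subunit, by -0.18. Second probe sets put Atp5pb at 0.17, Atp5o at 0.33 and Atp5h at 0.49. The stalk's median was 0.125, with 1 of 4 genes below 0 as deposited and after loess, median centring and quantile normalization, and none with control centring. All of these stalk differences lay within 1.5-fold. Of the 5 small membrane subunits 4 lay below 0, from Atp5j2 at -0.52 to Atp5k at -0.15, and Atp5mpl at 0.07 lay above. The test of a difference between head and stalk is not possible with 1 array per group.

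**Figure D2:**
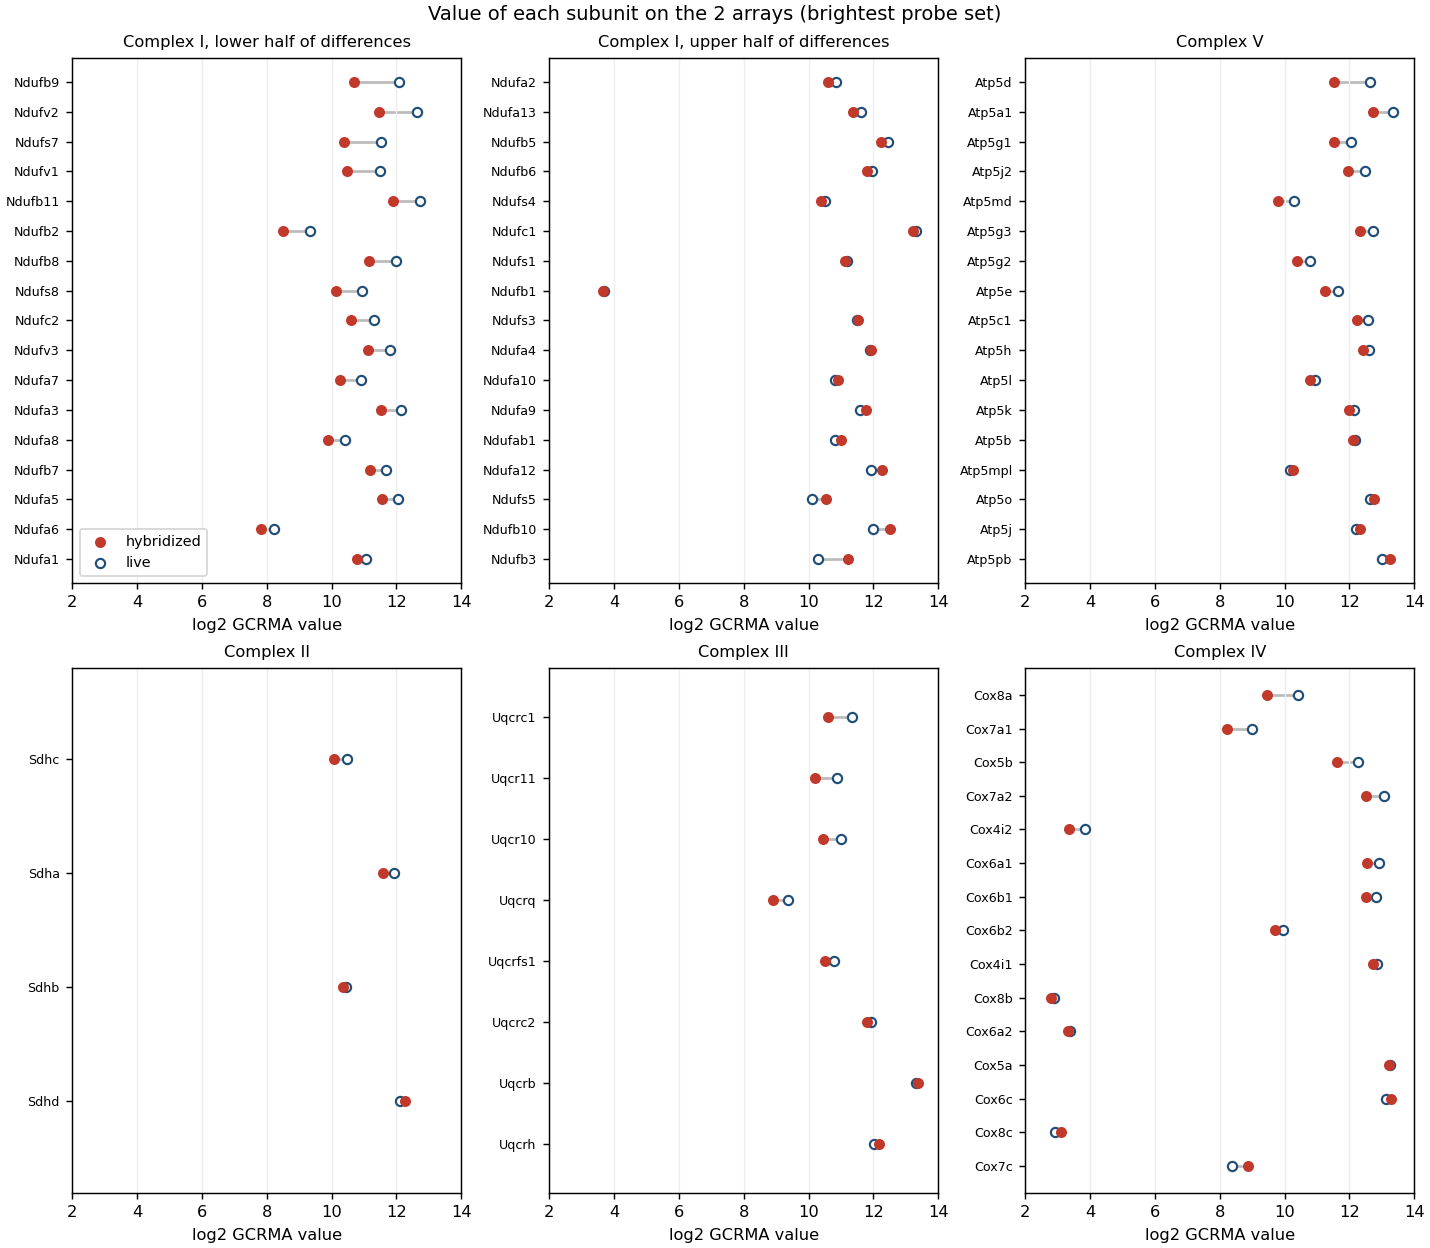
The log2 GCRMA value (x axis) of each of the 78 subunits on its brightest probe set, filled for the hybridized and open for the live sample, by complex and sorted from the lowest difference at the top. The widest gap is that of Ndufb9 (10.70 hybridized, 12.09 live), and the peripheral stalk genes Atp5o, Atp5j and Atp5pb have the filled point on the right. The 5 subunits under the level of 5 stand at the left. With control centring the filled points move 0.75 to the right.

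The lower readings of the subunits lay mostly on probe sets with a suffix. Names ending in _a_at, _s_at or _x_at mark probe sets whose probes are shared between transcripts of the same gene, between genes, or with other sequences, whereas plain _at probe sets are designed to be unique. Of 76 suffixed subunit probe sets at the level, 60 lay below 0 (78.9%), with a median of -0.365, 6 at least 2-fold lower (7.89%) and 0 higher. Of 58 plain ones 29 lay below 0, with a median of -0.01, 0 at least 2-fold lower and 5 higher (8.62%). Over all genes, the share past 2-fold was 13.7% downward and 12.4% upward on suffixed probe sets, and 12.3% downward and 13.5% upward on plain ones, so the 5 higher plain probe sets are a smaller share than the background. In all, 58.0% of 4068 suffixed and 50.4% of 7339 plain probe sets of all genes lay below 0, with medians of -0.16 and -0.01. The plain probe sets of the subunits thus matched those of all genes in their median. By suffix, the median of _x_at probe sets was -0.45 for subunits and -0.38 for all genes, and that of _s_at probe sets -0.365 and -0.18 in the same order. Of 35 _a_at subunit probe sets 28 lay below 0 with a median of -0.30, against 51.8% and -0.05 over all genes. With control centring every one of these medians is positive.

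Within a gene the same gap appeared. For 32 subunits with both kinds at the level, the plain probe sets lay above the suffixed ones in 26 (81.2%), by a median of 0.615. Over 1481 such genes on the array this held for 60.1%, by a median of 0.19, and neither figure moves with the centring. The gap was widest for Cox7c (2.77), Ndufb9 (1.89), Atp5c1 (1.79) and Ndufb11 (1.73), and the 6 genes with the plain probe sets lower included Ndufc1 (-0.59) and Cox6c (-0.36). Values for the 5 plain probe sets at least 2-fold higher were given above, for Cox7c, Ndufs4, Atp5c1, Sdhd and Uqcrb. The cause of the gap was not tested. Of 42 subunits with several probe sets at the level, 15 (35.7%) lay below 0 on all of them and 5 (11.9%) above 0 on all, as deposited. Over 2720 genes these shares were 27.1% and 27.6%. Of the 42, 22 had probe sets on both sides of 0 or at it.

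**Figure D3:**
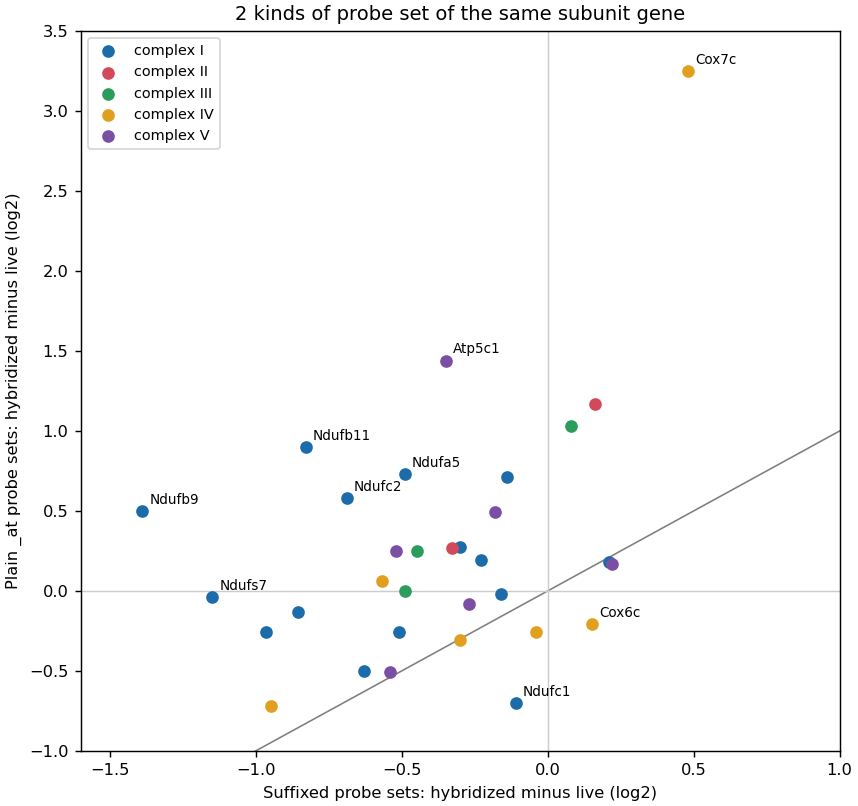
For 32 subunits with both kinds of probe set at the level, the mean difference on plain _at probe sets (y axis) against that on suffixed probe sets (x axis), both hybridized minus live in log2, coloured by complex. The line marks equal values, 26 of 32 points lie above it, and Cox7c (3.25 plain, 0.48 suffixed) is furthest from it. Centring would move all points along the line and leave their distance from it as it is.

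The 6 genes that share a prefix without being subunits read mostly higher in hybridized cells. Ndufaf5, an assembly factor that hydroxylates an arginine of Ndufs7, read 8.66 in hybridized cells and 7.27 in live cells. Ndufaf7, another assembly factor, read 8.69 and 7.88, Ndufaf3 8.22 and 7.67, and Ndufaf1 8.51 and 8.04, hybridized before live. Ndufaf4 differed by -0.47 on its brightest probe set and by 1.37 on the other. The supercomplex factor Cox7a2l differed by 0.83 on its brightest, an _x_at probe set, and by 0.11 and 0.12 on the others. A wider list of 33 assembly factors at the level, these 5 included, had a median of -0.09 with 17 below 0. Of the 33, 1 was at least 2-fold higher, Ndufaf5, and 2 at least 2-fold lower, Coa6 (-1.10) and Sdhaf1 (-1.03). Both shares are under those of all genes compared, 8.43% higher and 15.4% lower.

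Other mitochondrial lists had medians nearer 0 than the subunits as deposited, and none of the medians in this paragraph was compared by a test. The median of all genes compared was -0.17, so 0 is not the midpoint of these arrays. The subunits' median of -0.30 lay below that of all genes, and each list median given here lay above it. The subunits were not further from the all-gene median than the lists of this paragraph were. The assembly factors described before, with a median of -0.09, were nearer to it than the subunits. Of all genes compared 15.4% were at least 2-fold lower and 8.43% at least 2-fold higher. Of 16 citric acid cycle genes 9 lay below 0, with a median of -0.01, none 2-fold lower and 2 at least 2-fold higher. These were Dld, the dihydrolipoamide dehydrogenase subunit of the pyruvate and oxoglutarate dehydrogenase complexes (10.70 in hybridized cells, 8.87 in live cells), and Suclg1, a succinyl-CoA ligase subunit (11.37 and 10.25, in the same order). Of 27 genes of import and the inner membrane 14 lay below 0, with a median of -0.01, and Timm9, a small import chaperone, was the only one 2-fold apart, at 10.28 in hybridized cells against 7.85 in live cells. Of 14 genes of mitochondrial DNA expression and its regulators 6 lay below 0, with a median of 0.085. Among these Gabpb1, the partner of the GABPA factor, was 1.43 and Lrpprc, which stabilises mitochondrial mRNAs, 1.02 higher, while Polrmt, the mitochondrial RNA polymerase, differed by -1.65 and Tfam by -0.22. The 7 electron carriers and related genes had a median of 0.26, with 2 below 0, and Dhodh, an enzyme of pyrimidine synthesis that hands electrons to ubiquinone, was the one 2-fold apart at -1.04. With control centring each of these differences is 0.75 higher and each list median is positive. Timm9, Polrmt, Gabpb1 and Dhodh each have 2 probe sets, and only the brightest was read here.

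**Figure D4:**
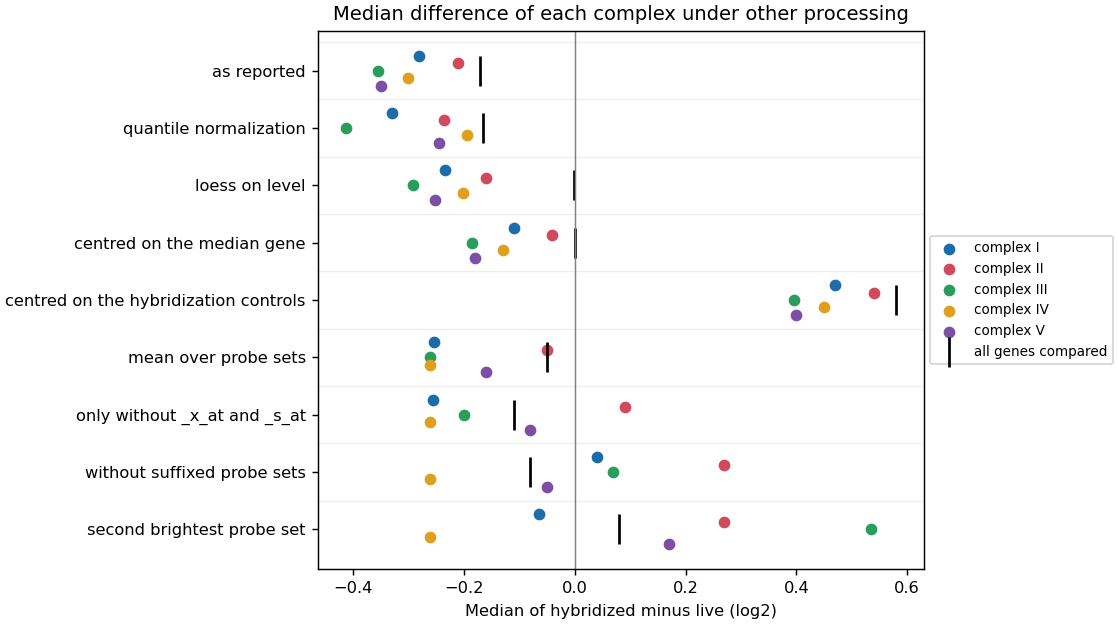
Median of hybridized minus live (log2, x axis) for each complex (coloured points) and for all genes compared (black marks) under 9 ways of processing (y axis). With the values as deposited all complex medians lie between -0.355 and -0.21, centred on the hybridization controls they lie between 0.395 and 0.54 and below that of all genes, and without suffixed probe sets they range from -0.26 (complex IV) to 0.27 (complex II).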

How the data were processed

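RNA of 1 hybridized and 1 live sample was measured on 1 array each, with groups taken from the labelled sample type. The values the authors deposited, 1 for every probe set on either array, were treated as log2, a base inferred from their range of 1.02 to 14.24 and the method. GCRMA, which corrects background by probe base composition, normalizes and summarises probes, and affy are named per the submitters' processing notes. Not given in the sources used here are their versions and the arrays normalized as a set. The medians of all 22690 probe sets were 5.67 in hybridized cells and 5.73 in live cells.

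Probe sets with 1 gene in the platform table (20380) were used, 691 with several genes and 1555 unnamed here were not, and 64 are controls. The array's depth is its signal, and background was not assessed by detection calls. The members and lists were chosen with earlier results of these data known. Genes named are those of complex II, the 3 highest and 3 lowest of each other complex, listed core subunits and isoforms, subunits 2-fold apart on 1 of 2 probe sets and non-subunits. Others were named after their values were seen. With 1 array per group no model was fitted. Counting was tested on simulated data. Alternatives were level limits of 4, 7 or none, other choices of probe set, centring, loess (span 0.3), quantile normalization and folds of 1.5 and 4. Software was pandas 2.3.3, numpy 2.4.6, statsmodels 0.14.6 and matplotlib 3.10.9 under Python 3.11.15.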

Additional observations from a re-analysis of the deposited data

How the results depend on the processing

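No paired analysis was possible because each group has 1 array. A median counted as moved when it changed by more than 0.50, the SD between probe sets of a subunit, divided by the square root of its number of genes, and a count when it changed by over 1.5 times. With level limits of 4 or 7 and with no limit the 5 subunits at least 2-fold lower and 0 higher stood as reported and no median moved. Quantile normalization (6 lower, 0 higher) moved no median either, and placing Ndufa4 in complex IV moved none. Loess on level gave 4 lower, 0 higher and a median of -0.23 over all subunits. Centring on the median gene gave 2 lower and 1 higher, with medians of -0.13 over all subunits, -0.11 for complex I, -0.13 for complex IV and -0.18 for complex V. Centring on the hybridization controls gave 0 lower and 5 higher, with medians of 0.45 over all subunits, 0.47, 0.54, 0.395, 0.45 and 0.40 for complexes I to V. By construction this adds 0.75 to every gene. The mean over probe sets gave 2 lower and 1 higher, with medians of -0.20 over all subunits and -0.16 for complex V. Without suffixed probe sets 53 subunits were left, 0 lower and 5 higher, with medians of 0 over all, 0.04 for complex I, 0.27 for II, 0.07 for III and -0.05 for V. Second brightest probe sets, of 42 subunits, gave 1 lower and 5 higher, with medians of 0.005 over all, -0.065 for complex I, 0.27 for II, 0.535 for III and 0.17 for V. Leaving out only _x_at and _s_at, an alternative chosen after seeing the data, gave 4 lower and 4 higher, with medians of -0.16 over all, 0.09 for complex II and -0.08 for complex V. Counting all genes that match the prefixes gave 1 higher. At 1.5-fold 19 were lower and 1 higher, and at 4-fold 0 were lower and 0 higher. Among the named genes that were 2-fold apart, Ndufb9 turned to 0.50 without suffixed probe sets and on its second brightest one. Of the differences of named genes, all 51 at the level moved by over 0.50 with control centring and 8 of the 51 did with the mean over probe sets. Of the 36 with a value without suffixed probe sets 12 moved besides Ndufb9, and of the 28 with one on second brightest probe sets 13 did. Why the choice of probe set moves these values was not tested. Values under 5 have no order, and no replicate bounds any difference.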

Other observations

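Several complex I subunits have probe sets that name several genes, and these entered no comparison above. Ndufb4, of the distal membrane arm, shares 2 probe sets with Ndufb4b and Ndufb4c, which read 11.23 and 9.67 in hybridized cells against 11.57 and 9.73 in live cells. Ndufa11, shared with Ndufa11b, read 10.48 in hybridized cells and 10.83 in live cells, and Ndufs6, a zinc-binding subunit shared with Ndufs6b, read 10.92 and 11.31 in the same order. These 4 probe sets thus differed by -0.39 to -0.06, within the range of the complex I subunits with a probe set of their own. A probe set shared by Ndufs5 and its pseudogene read 11.40 in hybridized cells and 10.88 in live cells, on the same side as Ndufs5 alone. One shared by Ndufab1, the mitochondrial acyl carrier protein, and its pseudogene read 9.47 in hybridized cells and 10.75 in live cells, a difference of -1.28, whereas the 3 probe sets of Ndufab1 alone differed by -0.09 to 0.45.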
